A study of Homo sapiens with 8 samples.

Results

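The genes described here encode the subunits of the proteasome and of its inducible form, the immunoproteasome, in MEG-01 cells. They were taken by symbol, as every protein-coding row that starts with PSMA, PSMB, PSMC, PSMD or PSME followed by a digit, and the rule found 44 genes of 60754 in the files (20004 protein-coding). Of these, 42 had enough reads to be tested. PSMA8, a core subunit of the testis, and PSMB11, a catalytic subunit of the thymic cortex, had 0 counts in each of the 8 libraries, where 3 counts would be 0.0334 to 0.0675 CPM, counts scaled to library size. PSMC3IP, a recombination factor named after the subunit it binds, matches the symbol rule and is described apart.

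MEG-01 is an established human megakaryoblastic leukaemia line, here grown as a single line in culture. Messenger RNA was sequenced in 4 groups of 2 libraries. The groups were cells given phorbol 12-myristate 13-acetate (PMA), a phorbol ester that drives megakaryocytic differentiation, at 100 nM together with Ceefourin 2, an inhibitor of the transporter ABCC4, at 20 µM; cells given 100 nM PMA; cells given Ceefourin 2 alone, at a dose that no source here states; and untreated cells. All treatments lasted 48 h. No source used here says that the replicates came from separate cultures, so p-values measure the spread between these libraries, which may be technical.

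Expected counts summed to between 44430292 and 89950886 per library, and the 44 members took 0.476% to 0.559% of them. Mitochondrially encoded genes took 4.53% to 9.61% of counts in the 4 libraries with PMA and 2.55% to 3.94% in the 4 without. Of 8 megakaryocyte markers, 7 reached 1 TPM (transcript abundance per length, scaled to one total per library) in some library, and PF4, a defining platelet chemokine, was at 0 in 7 of 8 libraries. Their summed level was 1454 to 1573 TPM with PMA and 784 to 856 TPM without. Summed markers of other cell types moved with PMA as well, but single markers went both ways. Mean TPM went from 164 in untreated to 416 in PMA cells for CD68, but from 35.1 to 21.8 for LYZ. It went from 73.0 to 211 for PECAM1 but from 4.2 to 2.7 for TEK. For NCAM1 it went from 0.865 to 24.3 but for NKG7 from 1.2 to 0.84. For CCR7 it went from 0.585 to 2.7 but for CLEC9A from 0.985 to 0.13. Summed levels with and without PMA were 383 to 470 against 179 to 221 TPM for 6 monocyte and macrophage markers (4 reached 1 TPM), 190 to 239 against 44.6 to 79.8 TPM for 4 endothelial markers (3 reached it), 21.2 to 27.3 against 2.19 to 3.78 TPM for 5 T and NK cell markers (2 reached it, CD3E at 0 in all), 9.36 to 18.7 against 0.07 to 0.39 TPM for 4 fibroblast markers (1 reached it) and 2.32 to 5.25 against 1.24 to 1.81 TPM for 4 dendritic markers (2 reached it). The 3 B cell markers summed to at most 0.5 TPM, with MS4A1 at 0 in all. The part of these marker levels in the results was not tested.

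The proteasome degrades proteins tagged with ubiquitin. Its core is a barrel of alpha rings around beta rings, and PSMB5, PSMB6 and PSMB7 carry the proteolytic sites. A cap made of a base, with ATPases that unfold the substrate, and a lid, which removes ubiquitin, sits at the ends. Interferon is known to induce PSMB8, PSMB9 and PSMB10, which take the places of PSMB5, PSMB6 and PSMB7 in newly built cores, and PSME1 and PSME2, which form an alternative activator. Cores with these subunits are known for producing peptides that MHC class I molecules present. In megakaryocytes and platelets proteasome activity is needed for platelet formation.

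The 14 constitutive core genes lay between 144 and 382 TPM in the untreated libraries, and the highest was 2.50 to 2.59 times the lowest within a library. The 17 cap genes spread further. PSMD8, a lid subunit, led all members at 469 ± 9.17 TPM (SD, n = 2), and PSMC2, a base ATPase, was the lowest cap gene at 39.5 ± 0.834 TPM. Those 2 genes stayed the extremes of the cap in all 8 libraries, where PSMD8 was 10.1 to 12.2 times PSMC2. The inducible catalytic genes were low beside the genes they replace. PSMB10 stood at 50.5 ± 0.0141 TPM, PSMB8 at 32.7 ± 5.41 TPM and PSMB9 at 2.50 ± 0.502 TPM, the last of the 42 in the order of levels, against 199 ± 6.75 TPM for PSMB7, 173 ± 14.5 TPM for PSMB5 and 187 ± 4.33 TPM for PSMB6. The activator genes PSME1 and PSME2 were at 133 ± 3.25 and 111 ± 2.18 TPM, within the range of the cap genes. Around PSMB5 (rank 11) neighbours in the order did not differ beyond their spread, from PSMC5 at 176 ± 1.21 TPM down to PSMA6 at 166 ± 4.91 TPM.

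All 5 inducible genes rose after PMA, PSMB8 on CPM alone, while the constitutive subunits split. Setting PMA against untreated cells shows what moved during induced differentiation. In edgeR, 19 of the 42 tested members were called at an adjusted p below 0.05, against 53.6% of all genes tested, so the share of members called (11 higher, 8 lower) was no larger than the background. Of all genes, 27.9% were called higher and 25.7% lower. Members moved less than most genes, with a median absolute log2 fold change of 0.19 against 0.59 over all 17314 genes tested. The median log2 fold change was 0.05 over the members and 0.00 over all genes. Among the inducible genes 5 of 5 rose, with a median of 0.79, and among the other 37 members 6 rose and 8 fell, with a median of 0.02.

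PSMB9, the inducible subunit that replaces the caspase-like PSMB6, moved most. It was at 8.62 and 8.71 TPM in PMA cells, against 2.14 and 2.85 TPM in untreated cells. Both PMA libraries lay above both untreated ones, and the log2 fold change of CPM was 2.14 (SE 0.17, edgeR adjusted p = 3.45e-05). With Ceefourin 2 present in both arms the step was similar, at 18.8 and 15.0 TPM in PMA plus Ceefourin 2 cells against 3.79 and 3.77 TPM in Ceefourin 2 cells (log2 fold change 2.43, SE 0.16, adjusted p = 1.78e-05). PSMB9 nevertheless stayed far below the gene it replaces. The 4 groups ordered by PSMB9 ran PMA plus Ceefourin 2, PMA, Ceefourin 2, untreated, with no overlap between neighbours.

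PSMB9 lies on chromosome 6 at 32844136 to 32859585 (GRCh38, GENCODE 29), in the MHC, next to PSMB8 at 32840717 to 32844703 and the peptide transporter genes TAP1 and TAP2. Its annotated span overlaps that of PSMB8 and of TAP1, which are on the other strand. The library kit marks strand, but no source here states whether counting used it, so reads in the overlap could be assigned to either gene. The region between the first exon of TAP1 and that of PSMB9 is known as the shared upstream region of both genes. A stretch of it is shown for that reason. The stretch runs from 213 to 45 bases before the RefSeq start of PSMB9, so it leaves out the bases nearest that start. It lies inside the GENCODE 29 span of PSMB9, which starts further upstream. It is given on the PSMB9 strand from RefSeq (GRCh38.p14), chr6:32853979-32854147, with the GC box (GGGCGG, searched on both strands) in capitals.
PSMB9 upstream: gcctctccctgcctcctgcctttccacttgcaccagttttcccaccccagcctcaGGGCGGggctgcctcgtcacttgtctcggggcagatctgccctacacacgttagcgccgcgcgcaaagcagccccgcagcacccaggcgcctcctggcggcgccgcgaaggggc
That box lies 158 to 153 bases before the RefSeq start of PSMB9, and 44.9% of the 34796 distinct human RefSeq windows, 250 bases before to 50 after a start, hold at least 1 GC box. TAP1 moved with PSMB9. It was at 21.2 and 21.6 TPM in PMA cells, against 11.4 and 9.66 TPM in untreated cells (log2 fold change 1.33, SE 0.11, adjusted p = 3.43e-05).

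PSMB10, the inducible trypsin-like subunit on chromosome 16 (67934502 to 67937087), was at 73.2 and 80.3 TPM in PMA cells, against 50.5 and 50.5 TPM in untreated cells. With Ceefourin 2 added to PMA it was at 74.1 and 77.6 TPM, against 50.3 and 42.1 TPM in Ceefourin 2 cells. Libraries with PMA lay above those without in both comparisons. The size of its rise depended on the unit. The log2 fold change was 1.35 on CPM (SE 0.11, adjusted p = 3.86e-05) and 0.59 on log2(TPM + 1), and with Ceefourin 2 in both arms it was 1.50 on CPM and 0.71 on log2(TPM + 1). PSMB10 was called on both scales.

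The 2 scales differ in 2 ways. CPM has TMM scaling and TPM does not, which shifts all genes of a library alike. TPM is also divided by the transcript length that RSEM, the authors' quantifier, gives a gene. Counts per TPM, taken relative to the median of 8241 well-expressed genes in the same library, stand for that effective length. For PSMB10 the value was 0.394 and 0.393 in PMA cells, against 0.275 and 0.279 in untreated cells, a ratio of 1.42. It was 0.391 and 0.395 in PMA plus Ceefourin 2 cells, against 0.277 and 0.282 in Ceefourin 2 cells, a ratio of 1.40. Among the 8241 genes, 16 moved by more than 0.5 log2 between PMA and untreated cells, and the change of PSMB10 stood at the 99.9th percentile by size. PSMB8, PSME1 and PSME2 changed by ratios of 1.00, 1.01 and 0.998. PSMB9, which is not among the 8241 genes, changed by a ratio of 1.07. Its values overlapped, at 0.465 and 0.428 in PMA cells against 0.455 and 0.379 in untreated cells. RSEM derives this length from the mix of transcripts it assigns to a gene. Which transcripts of PSMB10 differed was not analysed here.

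**Figure D1:**
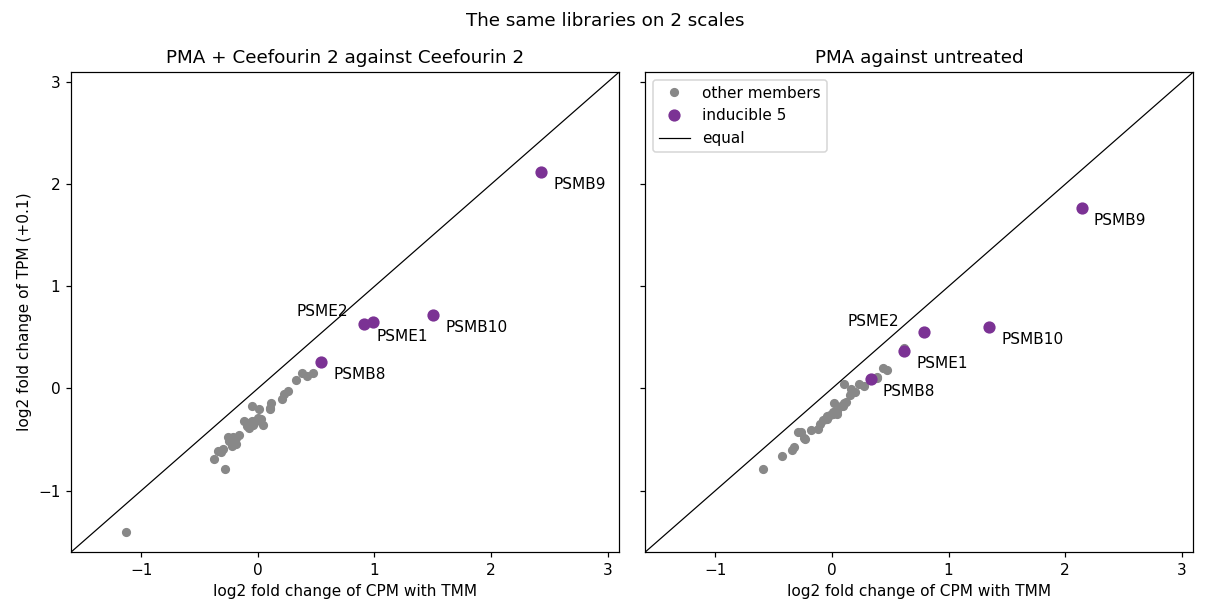
Each point is a member: the x axis is the log2 fold change of CPM with TMM scaling and the y axis the log2 fold change of TPM with a pseudocount of 0.1, for PMA plus Ceefourin 2 against Ceefourin 2 (left) and PMA against untreated (right). All 42 members lie below the line of equal values in both panels, and PSMB10, at 1.50 and 0.72 on the left and 1.35 and 0.60 on the right, falls further below.

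PSME1 and PSME2, the chains of the interferon-induced activator, lie on chromosome 14 at 24136158 to 24138967 and 24143362 to 24147570. PSME2 was at 159 and 168 TPM in PMA cells, against 113 and 110 TPM in untreated cells (log2 fold change 0.79, SE 0.08, adjusted p = 0.000138). PSME1 was at 161 and 181 TPM in PMA cells, against 131 and 135 TPM in untreated cells (0.62, SE 0.10, adjusted p = 0.00124). Neither gene's groups overlapped. With Ceefourin 2 in both arms, PSME2 was at 175 and 187 TPM in PMA plus Ceefourin 2 cells, against 117 and 114 TPM in Ceefourin 2 cells (0.98, SE 0.08, adjusted p = 4.63e-05), and PSME1 was at 204 and 211 TPM, against 132 and 136 TPM (0.91, SE 0.10, adjusted p = 0.000175). The span of PSME2 overlaps RNF31 on the other strand, and its pseudogene PSME2P2 held 1.12% as many counts as PSME2.

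PSMB8, the inducible chymotrypsin-like subunit, changed least of the 5. Its TPM did not separate the groups, with 34.6 and 34.7 TPM in PMA cells, against 36.5 and 28.8 TPM in untreated cells. On CPM it averaged 30.3 ± 0.227 in PMA cells and 24.1 ± 2.53 in untreated cells (SD, n = 2 each), a log2 fold change of 0.33 (SE 0.11, adjusted p = 0.0314). That call was lost on log2(TPM + 1) (0.09, adjusted p = 0.583), without untreated replicate 2 (0.24, adjusted p = 0.181), and without PMA replicate 1 or 2 (adjusted p = 0.113 and 0.0985). With Ceefourin 2 in both arms the libraries separated, at 45.9 and 39.7 TPM in PMA plus Ceefourin 2 cells against 37.5 and 33.9 TPM in Ceefourin 2 cells (log2 fold change of CPM 0.55, SE 0.11, adjusted p = 0.00332). That call too was lost on log2(TPM + 1) (0.25, adjusted p = 0.137), and it was lost without PMA plus Ceefourin 2 replicate 1 and PMA replicate 1 together (adjusted p = 0.0513).

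**Figure D2:**
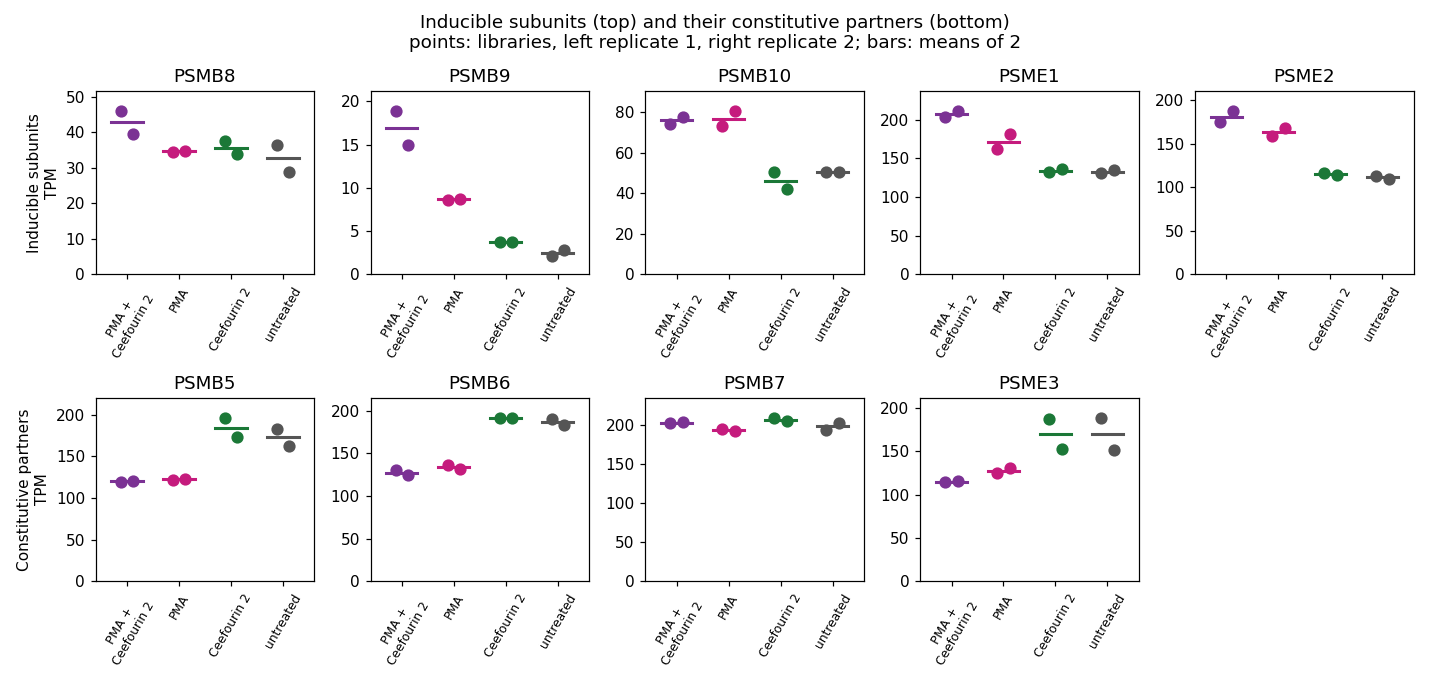
TPM of the 5 inducible genes (top) and of the constitutive genes set against them (bottom) in the 4 groups, with a point per library, a bar for the mean of 2 and a y axis from 0. PSMB9 reaches 18.8 TPM with PMA plus Ceefourin 2 against at most 2.85 TPM in untreated cells, while PSMB5 and PSMB6 are lower in all 4 libraries with PMA than in the 4 without.

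Interferon acts on such genes through the interferon-stimulated response element, searched here as GAAA, any 2 bases and GAAA again, on both strands, from 250 bases before to 50 bases after each RefSeq start (GRCh38.p14). It was found in 6 of the 47 distinct windows of members (12.8%), those of 6 of the 39 genes in the table, and in 3.57% of the 34796 distinct windows of all genes. A first search of the 250 bases before the first start had found it in PSMB10, PSME2, PSMA4 and PSMB4. The sites of PSMB8 and PSME1 came in when the window was widened after that search had been seen. The 6 sites are shown because 4 belong to inducible genes and hold the same 10 letters. Each is 30 bases on the gene's strand, with the element in capitals, and in PSMB8 and PSME1 it reads on the other strand.
PSMB10: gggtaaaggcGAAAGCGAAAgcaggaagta
PSME2: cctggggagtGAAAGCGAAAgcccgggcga
PSMB8: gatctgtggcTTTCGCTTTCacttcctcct
PSME1: gccctaccgcTTTCGCTTTCccttcgcggt
PSMA4: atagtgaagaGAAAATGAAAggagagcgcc
PSMB4: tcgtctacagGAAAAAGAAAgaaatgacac
The element lies 21 to 12 bases before the start in PSMB10 (chr16:67936852-67936881, minus strand) and 28 to 19 bases before it in PSME2 (chr14:24146619-24146648, minus strand). In PSMB8, at 1 of its 2 listed starts, it spans the start, with 4 bases before it and 6 after (chr6:32844032-32844061, minus strand). In PSME1 it takes bases 6 to 15 after the start (chr14:24136189-24136218, plus strand). The sites of PSMA4, at 240 to 231 bases before the start (chr15:78540155-78540184, plus strand), and PSMB4, at 68 to 59 (chr1:151399495-151399524, plus strand), have other middle letters. These distances hold for the RefSeq starts used here. GENCODE 29 starts PSMB10, PSME2, PSMB8, PSME1 and PSMB4 further upstream, at 67937087, 24147570, 32844703, 24136158 and 151399534. The core genes PSMA4 (log2 fold change after PMA 0.01, adjusted p = 0.920) and PSMB4 (0.08, adjusted p = 0.513) were not called. The window of PSMB9, the gene that moved most, does not hold these letters. The antioxidant response element, searched as TGANNNNGC on both strands, through which NFE2L1 is known to act on proteasome genes, was in 29 of the 47 member windows (61.7%) and in 41.8% of all windows. Of the other motifs searched the same way, the gamma interferon activated site (TTCNNNGAA) was in 8 member windows, among the inducible genes in that of PSMB8 alone, and in 7.67% of all windows. The NF-kB motif (GGG, any 2 bases and TTTCC) was in 1 (2.13%), that of PSMD6, and in 1.91% of all windows. The AP-1 motif (TGANTCA) was in 3 (6.38%), none of an inducible gene, and in 7.73% of all windows. The NF-Y motif (CCAAT) was in 21 (44.7%) and in 34.6% of all windows, and the GC box (GGGCGG) in 32 (68.1%) and in 44.9%.

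Set against the genes they replace, the inducible subunits were higher in every library with PMA than in any without. PSMB9 over PSMB6 in TPM was 0.144 and 0.121 in PMA plus Ceefourin 2 cells, 0.0633 and 0.0665 in PMA cells, 0.0198 and 0.0197 in Ceefourin 2 cells and 0.0113 and 0.0155 in untreated cells. The mean log2 ratio was 2.52 higher in the 4 libraries with PMA than in the 4 without. PSMB8 over PSMB5 was 0.383 and 0.331 in PMA plus Ceefourin 2 cells, 0.283 and 0.283 in PMA cells, 0.191 and 0.196 in Ceefourin 2 cells and 0.199 and 0.177 in untreated cells, a difference of 0.74. So PSMB8, whose own TPM overlapped between PMA and untreated cells, separated them once divided by PSMB5. On log2(TPM + 1) PSMB8 moved by 0.09 after PMA and PSMB5 by -0.49. On CPM they moved by 0.33 and -0.23, so the part of each gene in that separation depended on the scale.

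PSMB10 over PSMB7 was 0.365 and 0.381 in PMA plus Ceefourin 2 cells, 0.376 and 0.418 in PMA cells, 0.241 and 0.205 in Ceefourin 2 cells and 0.261 and 0.248 in untreated cells, a difference of 0.69. Taken on CPM, where length is not divided out, that difference was 1.19. The sum of PSME1 and PSME2 over PSME3, which forms a nuclear activator that interferon does not induce, was 3.32 and 3.45 in PMA plus Ceefourin 2 cells, 2.57 and 2.68 in PMA cells, 1.33 and 1.63 in Ceefourin 2 cells and 1.29 and 1.62 in untreated cells, a difference of 1.03. PSME3 itself moved by -0.40 on log2(TPM + 1) after PMA, and PSME1 and PSME2 by 0.36 and 0.55. For each of the 4 ratios all libraries with PMA lay above all without. How often ratios of other genes separate in this way was not counted, so it is not shown to be particular to these ratios. In edgeR 53.6% of all genes tested were called after PMA. The test shuffled all 8 libraries freely, so each side pooled libraries with and without Ceefourin 2, which differed in PSMB9 over PSMB6. The two-sided exact permutation p was 0.0286 for each, the smallest that 4 against 4 libraries can give, and 0.0286 after Benjamini-Hochberg adjustment over the 4 ratios. Without any 1 library it was at the smallest value that 4 against 3 can give, 0.057. For PMA against untreated cells alone, 2 against 2 libraries cannot give a p below 0.333.

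**Figure D3:**
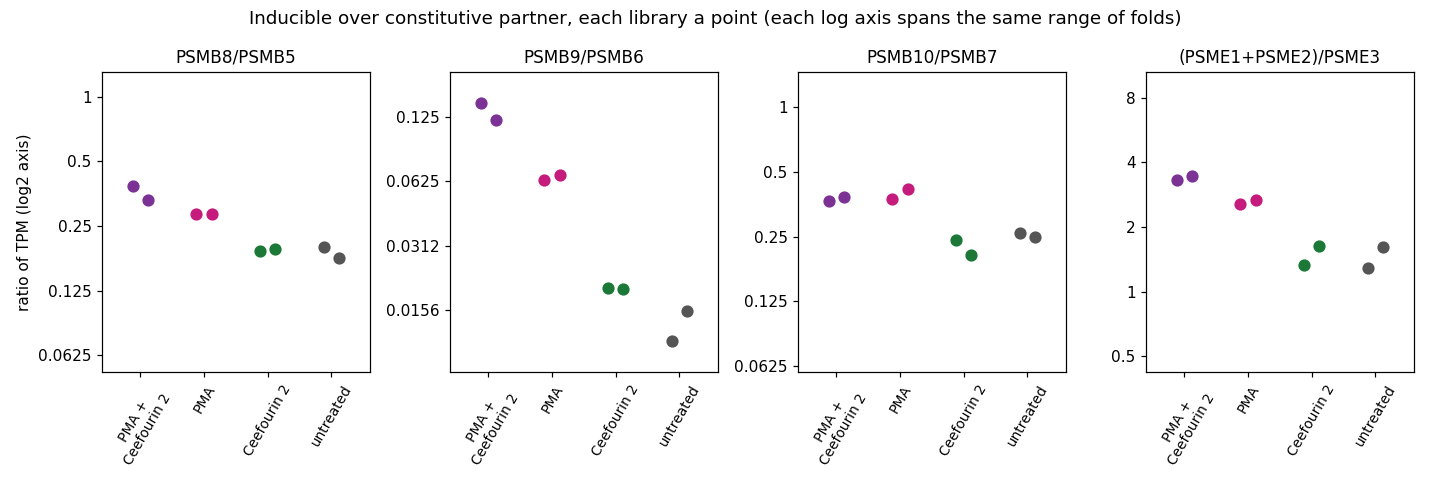
Ratio of TPM of each inducible gene, or of PSME1 and PSME2 together, to its constitutive counterpart, on log2 axes that span the same range of folds, with a point per library. The lowest library with PMA lies above the highest without in each panel, and PSMB9 over PSMB6 spans the most, from 0.0113 to 0.144.

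The 14 constitutive core subunits moved both ways. After PMA, 2 rose and 5 fell, and the median log2 fold change was -0.02. Those that fell include catalytic PSMB5, at 122 and 123 TPM in PMA cells against 183 and 163 TPM in untreated cells (log2 fold change of CPM -0.23, SE 0.08, adjusted p = 0.0323), and PSMB6, at 136 and 131 TPM against 190 and 184 TPM (-0.24, SE 0.08, adjusted p = 0.0345). PSMB2, a structural beta subunit, fell most, to 97.01 and 96.99 TPM in PMA cells, against 155 and 152 TPM in untreated cells (-0.43, SE 0.07, adjusted p = 0.00164). The alpha ring genes PSMA2 (-0.33, SE 0.07, adjusted p = 0.00692) and PSMA1 (-0.27, SE 0.09, adjusted p = 0.0297) fell too. The calls of PSMB5 and PSMB6 were lost in DESeq2 and in 6 and 7 of the 8 fits without 1 library, the untreated and PMA ones among them, and that of PSMA1 in the 4 fits without an untreated or a PMA library. PSMA2 lost its call without untreated replicate 2 or PMA replicate 1.

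The core genes that rose were alpha ring genes. PSMA5 was at 158 and 168 TPM in PMA cells, against 152 and 149 TPM in untreated cells (log2 fold change of CPM 0.39, SE 0.08, adjusted p = 0.00543). PSMA6 was at 159 and 181 TPM, against 170 and 163 TPM (0.28, SE 0.09, adjusted p = 0.0346), so its TPM overlapped between the groups. Neither was called on TPM, and PSMA6 lost its call without untreated replicate 1 or 2 or PMA replicate 2. PSMB7, the constitutive partner of PSMB10, was not called, at 195 and 192 TPM in PMA cells against 194 and 203 TPM (0.20, SE 0.09, adjusted p = 0.0887).

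Of the 17 cap subunits, 4 rose and 1 fell after PMA, with a median of 0.10. PSMC4, a base ATPase, was at 217 and 225 TPM in PMA cells, against 176 and 160 TPM in untreated cells (log2 fold change of CPM 0.62, SE 0.08, adjusted p = 0.000437). PSMD2, the large scaffold of the base, was at 176 and 177 TPM, against 162 and 150 TPM (0.47, SE 0.08, adjusted p = 0.00137), and PSMD13, a lid subunit, at 127 and 133 TPM, against 113 and 113 TPM (0.44, SE 0.08, adjusted p = 0.00219). The TPM of all 3 did not overlap between the groups. The ATPase PSMC5 rose by 0.38 (SE 0.08, adjusted p = 0.0059).

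PSMD14, the lid enzyme that removes ubiquitin from substrates, went the other way. It fell to 116 and 119 TPM in PMA cells, against 183 and 174 TPM in untreated cells (-0.34, SE 0.08, adjusted p = 0.00656). The remaining 12 cap genes ranged from -0.12 for the ATPase PSMC3 to 0.16 for the lid genes PSMD3 and PSMD12 and were not called. Among the 3 chaperones that build the base, PSMD5 fell (-0.29, SE 0.08, adjusted p = 0.0195), a call lost without any 1 of the untreated or PMA libraries. PSMD9 (0.02, adjusted p = 0.913) and PSMD10 (-0.08, adjusted p = 0.525) were not called. Nor were the activators PSME3 (-0.18, adjusted p = 0.174) and PSME4 (0.23, adjusted p = 0.122). PSMC3IP fell to 8.66 and 9.78 TPM in PMA cells, against 15.5 and 16.6 TPM in untreated cells (-0.59, SE 0.17, adjusted p = 0.0202), a call lost without untreated replicate 2 or PMA replicate 1.

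**Figure D4:**
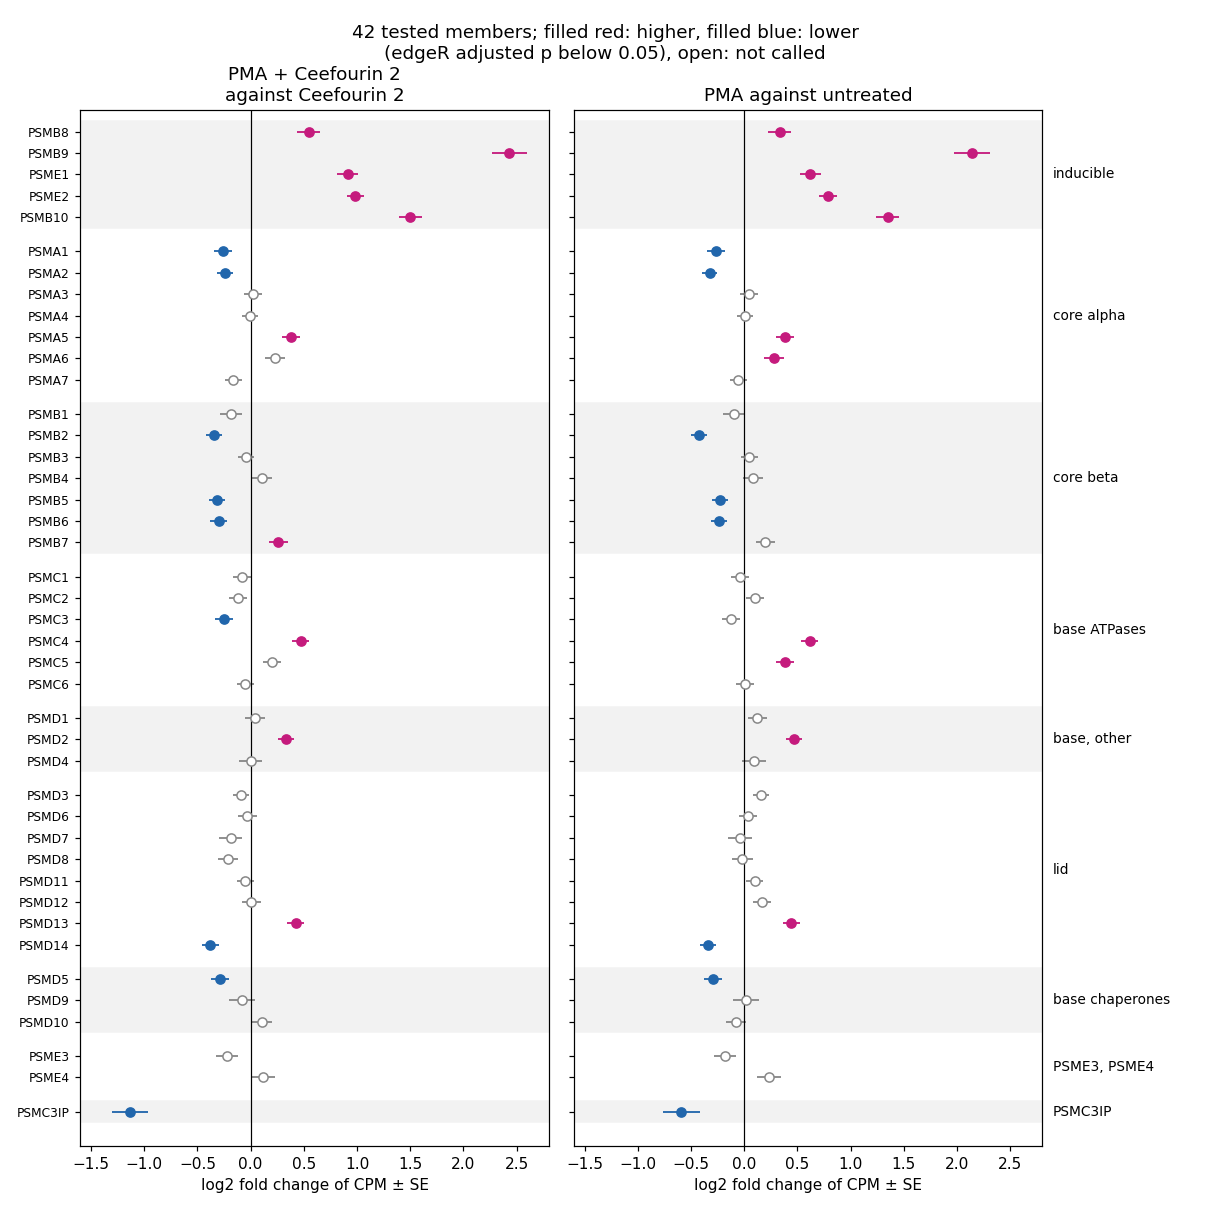
Log2 fold changes of CPM with standard errors for the 42 tested members, ordered by place in the complex, for PMA plus Ceefourin 2 against Ceefourin 2 (left) and PMA against untreated (right). The 5 inducible genes all lie right of 0, from 0.33 to 2.14 after PMA, with PSMB9 and PSMB10 furthest out, and the other members scatter on both sides of 0, between -1.13 and 0.47 on the left and between -0.59 and 0.62 on the right.

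The split of the constitutive genes depended on the scale. TPM carries no correction for composition, and on log2(TPM + 1) limma called 6 members higher and 17 lower after PMA, against 11 and 8 in edgeR. Of the 17314 genes tested, limma on that scale called 18.5% higher and 33.7% lower. There the median over all genes was -0.14 and that over the members -0.20. PSMB9, PSMB10, PSME1, PSME2, PSMC4 and PSMD13 were the 6 called higher on TPM, so they rose on both scales. PSMA5, PSMA6, PSMC5, PSMD2 and PSMB8 rose on CPM alone. All 8 genes that fell on CPM were also called lower on TPM. With Ceefourin 2 in both arms TPM gave 4 higher (PSMB9, PSMB10, PSME1 and PSME2) and 25 lower, against 10 and 9 in edgeR, with a median of all genes of -0.15 and of the members of -0.31. There limma called 17.4% of all genes higher and 34.6% lower.

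Summed TPM gives the same picture by subcomplex. The 14 core genes summed to 2537 ± 50.6 TPM in PMA plus Ceefourin 2 cells, 2609 ± 106 TPM in PMA cells, 3206 ± 119 TPM in Ceefourin 2 cells and 3148 ± 88.9 TPM in untreated cells (SD, n = 2 each). The 17 cap genes summed to 2124 ± 58.4, 2125 ± 54.4, 2563 ± 33.3 and 2277 ± 68.5 TPM in the same order. For both, each library with PMA lay below each without. Rescaled without the 37 mitochondrially encoded genes, the core sums became 2851 ± 76.4, 2948 ± 70.2, 3388 ± 114 and 3339 ± 42.7 TPM and still did not overlap between libraries with and without PMA. The cap sums became 2385 ± 45.9, 2403 ± 93.0, 2709 ± 25.9 and 2414 ± 35.4 TPM, and then PMA and untreated cells overlapped.

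The inducible sums went the other way. PSMB8, PSMB9 and PSMB10 together made 136 ± 4.62 TPM in PMA plus Ceefourin 2 cells, 120 ± 5.13 TPM in PMA cells, 85.6 ± 8.43 TPM in Ceefourin 2 cells and 85.7 ± 4.89 TPM in untreated cells. PSME1 and PSME2 together made 388 ± 13.6, 335 ± 20.3, 249 ± 0.679 and 244 ± 1.07 TPM in that order. Libraries with PMA lay above those without for both sums. In such bulk samples fewer cells that express a gene and less RNA per cell cannot be told apart.

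The PMA step was measured a second time, in other libraries, by PMA plus Ceefourin 2 against Ceefourin 2. The dose of Ceefourin 2 alone is not stated, so these arms may also differ in dose. There 19 members were called again, 10 higher and 9 lower, against 53.5% of all genes (28.0% higher, 25.6% lower). The members called in both comparisons with the same direction numbered 17, which is 89.5% of each list, 9 of them higher and 8 lower. The matching overlap over all genes was not counted, so this share is not shown to be particular to the members. PSMA6 and PSMC5 were called after PMA alone, and PSMB7 (log2 fold change 0.26, adjusted p = 0.0372) and PSMC3 (-0.25, adjusted p = 0.0362) with Ceefourin 2 present, both calls that were lost without either PMA plus Ceefourin 2 library. Across the 42 members the log2 fold changes of the 2 comparisons, which share no library, had r = 0.97, and r = 0.91 over the 37 that are not inducible, against 0.90 over all genes. PSMC3IP had the largest fall, to 7.63 and 8.91 TPM in PMA plus Ceefourin 2 cells, against 21.0 and 23.2 TPM in Ceefourin 2 cells (-1.13, SE 0.17, adjusted p = 0.000894).

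Few members were called for Ceefourin 2. In PMA plus Ceefourin 2 against PMA 1 of 42 members was called, PSMB9, against 1.83% of all genes (0.918% higher). Both of its libraries with the inhibitor lay above both without, at 18.8 and 15.0 TPM in PMA plus Ceefourin 2 cells against 8.62 and 8.71 TPM in PMA cells (log2 fold change of CPM 1.01, SE 0.16, adjusted p = 0.0224). The call was lost without any 1 of the 4 libraries compared (adjusted p = 0.0716 to 0.194) and on log2(TPM + 0.1) (adjusted p = 0.0665), while the log2 fold change stayed between 0.87 and 1.13 over all fits without 1 library. The other inducible genes had positive but uncalled values for PSMB8 (0.33, adjusted p = 0.211), PSME1 (0.29, adjusted p = 0.238) and PSME2 (0.20, adjusted p = 0.326), and PSMB10 was at -0.01 (adjusted p = 0.991). PSME1 was at 204 and 211 TPM in PMA plus Ceefourin 2 cells, against 161 and 181 TPM in PMA cells, and did not overlap. The 37 other members lay between -0.14 and 0.13, with 0 called.

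Without PMA, in Ceefourin 2 against untreated cells, 0 of 42 members were called in edgeR, against 1.68% of all genes (0.959% higher, 0.722% lower). At an unadjusted p below 0.05 there were 4 members, and DESeq2 called 1, PSMB9 (adjusted p = 0.0345). PSMB9 was at 3.79 and 3.77 TPM in Ceefourin 2 cells, against 2.14 and 2.85 TPM in untreated cells, without overlap (log2 fold change of CPM 0.72, SE 0.17, edgeR adjusted p = 0.10). PSMC3IP had the next largest value (0.40, SE 0.17, adjusted p = 0.349). The 17 cap genes had a median of 0.13, between -0.01 and 0.20, with 0 called, against 0.00 over all genes.

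The interaction term asks whether the Ceefourin 2 step differed with PMA. As the dose without PMA is not stated, the steps may also differ in dose. It called 0 of 42 members in edgeR and in DESeq2, against 0.0116% of all genes, and 1 member, the lid gene PSMD3, had an unadjusted p below 0.05 (-0.25, SE 0.11, adjusted p = 0.685). For PSMB9 it was 0.29 (SE 0.23, adjusted p = 0.967), for PSME1 0.29 (SE 0.14, adjusted p = 0.773) and for PSMC3IP, the member furthest from 0, -0.54 (SE 0.24, adjusted p = 0.725). A difference of the Ceefourin 2 step between cells with and without PMA was therefore not detected for any member in these libraries.

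**Figure D5:**
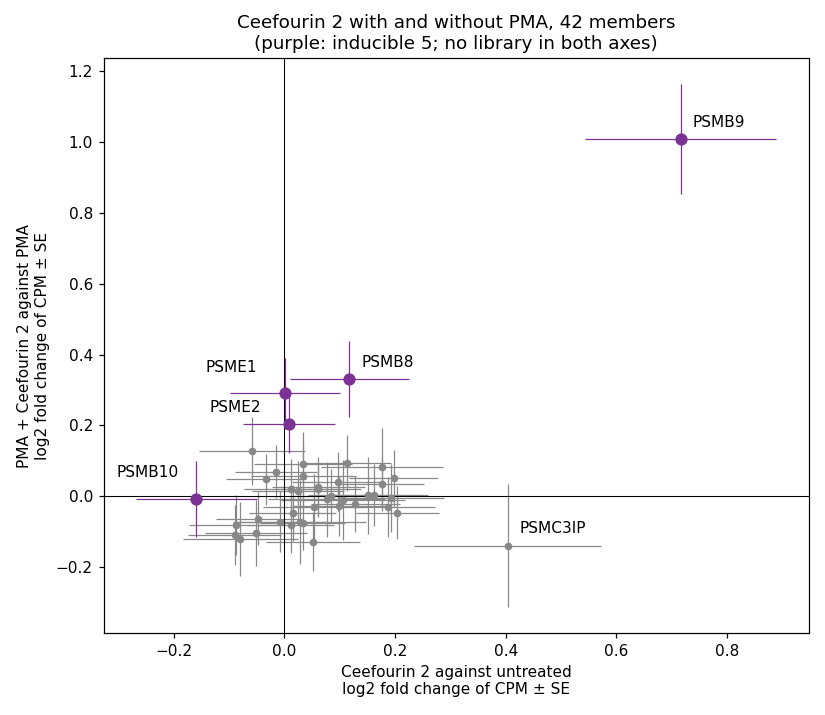
Log2 fold changes of CPM with standard errors for PMA plus Ceefourin 2 against PMA (y axis) and Ceefourin 2 against untreated (x axis), with a point per member and the 5 inducible genes in purple. PSMB9 stands apart at 0.72 and 1.01, and the other members lie between -0.16 and 0.40 on the x axis and between -0.14 and 0.33 on the y axis.

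The genes that work with the proteasome were counted in the same fits. Over all genes tested, 27.9% were called higher and 25.7% lower after PMA, and 28.0% and 25.6% with Ceefourin 2 in both arms. The share called was 1.83% in PMA plus Ceefourin 2 against PMA and 1.68% in Ceefourin 2 against untreated cells. Of 20 assembly and associated factors, 2 rose and 9 fell after PMA, with a median of -0.24. PSMG1 and PSMG4, chaperones that build the core, fell to 98.3 and 94.9 TPM and to 26.0 and 24.2 TPM in PMA cells, against 230 and 195 TPM and 55.4 and 52.4 TPM in untreated cells (log2 fold changes -0.90 and -0.87, adjusted p = 7.52e-05 and 0.000422). UCHL5, a deubiquitinase bound to the cap, fell by 0.67 (adjusted p = 0.000273), and PAAF1, which binds the base ATPases, fell by 0.40 (adjusted p = 0.00652). The 2 that rose were POMP, which matures the core (0.36, adjusted p = 0.0135), and ADRM1, a ubiquitin receptor of the cap (0.31, adjusted p = 0.0108). With Ceefourin 2 in both arms 1 of the 20 rose, POMP (0.33, adjusted p = 0.018), and 7 fell. In PMA plus Ceefourin 2 against PMA and in Ceefourin 2 against untreated cells, 0 of the 20 were called.

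Of 22 tested transcription regulators of proteasome and immunoproteasome genes, 12 rose and 2 fell after PMA, against 27.9% and 25.7% of all genes. IRF1, an interferon-induced activator of immunoproteasome genes, reached 71.7 and 93.9 TPM in PMA cells, against 14.6 and 14.7 TPM in untreated cells (log2 fold change 2.74, SE 0.14, adjusted p = 5.19e-06). STAT3 rose by 1.199 (adjusted p = 2.24e-05), STAT2 by 1.06 (adjusted p = 8.21e-05) and FOXO4 by 0.99 (adjusted p = 0.000114). The 2 that fell were NFYB, a subunit of the factor NF-Y (-1.15, adjusted p = 0.000155), and NFKB1 (-0.54, adjusted p = 0.0195). With Ceefourin 2 in both arms 12 rose again, and the same 2 fell, by 1.22 (adjusted p = 0.000117) and 0.48 (adjusted p = 0.0316). For Ceefourin 2, 0 of the 22 were called with PMA or without it, against 1.83% and 1.68% of all genes. A regulator that was not called is not shown to be unchanged.

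Of 14 MHC class I partners, 12 rose and 0 fell after PMA (all genes 27.9% and 25.7%), with a median of 1.17. TAPBP, which loads peptides onto MHC class I, reached 102 and 89.2 TPM in PMA cells, against 34.2 and 32.5 TPM in untreated cells (log2 fold change 1.69, SE 0.10, adjusted p = 8.37e-06), and HLA-C, TAPBPL and the peptide trimmer ERAP1 rose by 1.70, 1.91 and 1.01. Ceefourin 2 alone, against untreated cells, raised 2 of the 14, the chaperone CALR (0.54, adjusted p = 0.0239) and TAP1 (0.56, adjusted p = 0.0453). In PMA plus Ceefourin 2 against PMA 0 of the 14 were called, and TAP1, with the smallest p, was at 0.51 (adjusted p = 0.0567). The PMA step with Ceefourin 2 in both arms raised 11 and lowered 1, CALR (-0.59, adjusted p = 0.000589).

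Of 21 tested interferon response genes, 18 rose and 0 fell after PMA (all genes 27.9% and 25.7%), with a median of 2.58. Among them GBP2 rose by 3.61 (edgeR adjusted p = 8.14e-06). Against PMA alone, PMA plus Ceefourin 2 had 4 higher and 0 lower, the guanylate-binding genes GBP4 (1.25, adjusted p = 0.00307), GBP5 (2.46, adjusted p = 0.0126) and GBP2 (1.06, adjusted p = 0.0349) and the antiviral gene RSAD2 (1.15, adjusted p = 0.00908), while the median of the 21 was -0.16. In Ceefourin 2 against untreated cells 2 rose, GBP4 (1.21, adjusted p = 0.00365) and GBP5 (2.22, adjusted p = 0.0183). In the PMA step with Ceefourin 2 in both arms 19 rose. Of 11 ubiquitin genes and E1 enzymes, 4 rose and 3 fell after PMA, against 27.9% and 25.7% of all genes. UBA7, the activating enzyme of the interferon-induced ISG15, rose by 2.40 (adjusted p = 2.21e-06), while SAE1 and UBA2, which activate SUMO, fell by 0.80 and 0.56 and NAE1, which activates NEDD8, by 0.35. Of the 11, 5 rose and 3 fell with Ceefourin 2 in both arms, and in Ceefourin 2 against untreated cells UBA7 fell by 0.53 (adjusted p = 0.0453).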

How the data were processed

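The submitters' processing notes name STAR 2.7 and RSEM 1.3.1 and the build hg38, for stranded mRNA libraries. No source here states the annotation release. The authors deposited expected counts per gene, which are not normalized, and TPM, which the authors scaled by transcript length and library total. Positions came from GENCODE 29 (GRCh38) and upstream sequences from RefSeq (GRCh38.p14). The members and lists were chosen with earlier results of these data known.

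For testing, expected counts were rounded, genes were kept by filterByExpr (17314 left) and libraries were scaled by TMM (factors 0.920 to 1.08). All 8 libraries entered 1 edgeR 4.0.16 quasi-likelihood fit (R 4.3.3) with group means and 4 residual degrees of freedom. Each comparison was adjusted by Benjamini and Hochberg's method across every tested gene, and genes below 0.05 were called. Rose and fell refer to called genes. The standard error of a log2 fold change is its size divided by the square root of F. Unless another scale is named, log2 fold changes are of CPM. Ratios of TPM were compared with exact permutation tests in scipy 1.17.1. Alternatives were RLE scaling, other filters, DESeq2 1.42.0, limma 3.58.1 on log2(TPM + 1) and log2(TPM + 0.1), fits of the compared groups alone, a replicate block and fits without each library. Added after the data were seen were a fit without PMA replicate 1 and PMA plus Ceefourin 2 replicate 1, which have the highest mitochondrial shares, and TPM without mitochondrially encoded genes. The promoter window was widened past the start, and to every listed start, after a first search of the 250 bases before the first start had been seen; that search found the interferon element in PSMB10, PSME2, PSMA4 and PSMB4. The scripts were tested on simulated data. Every member could be named, and from each other list up to 4 called genes with the smallest p, or, if no gene was called, the one of smallest p. Of these, 1 gene is not reported here. TAP1 beside PSMB9, PSME2P2, POMP, ADRM1, NFKB1, NAE1, CALR's fall and the single markers of other cell types were named after their values were seen. Of the members, 12 had a count further than 0.005 from a whole number in some library; RSEM gives such counts where reads fit more than 1 gene.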

Additional observations from a re-analysis of the deposited data

How the results depend on the processing

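After PMA, 19 members were called, 12 to 19 over the fits without 1 library and 11 without both replicate 1 libraries with PMA. In PMA plus Ceefourin 2 against Ceefourin 2, 19 became 12 to 19, 9 and, on log2(TPM + 1) and log2(TPM + 0.1), 29 and 29. In PMA plus Ceefourin 2 against PMA, 1 became 0 on log2(TPM + 0.1), 0 to 1 without 1 library and 0 without both. In Ceefourin 2 against untreated, 0 became 1 without a filter and 1 in DESeq2. With the replicate block the counts were 23, 26, 3, 2 and, for the interaction, 0. With it PSMB9, PSMB8 and PSME1 were called in PMA plus Ceefourin 2 against PMA, and PSMB9 and PSMC3IP in Ceefourin 2 against untreated; with 2 replicates the numbers are not shown to pair the libraries (correlations of deviations 0.137 to 0.363). Of the calls, 7 of 19 after PMA and 5 of 19 with Ceefourin 2 in both arms held in all 17 alternatives, and PSMB9 with Ceefourin 2 in PMA cells did not. Log2 ratios with PMA minus without ranged over the fits without 1 library from 0.65 to 0.79 for PSMB8, 2.30 to 2.70 for PSMB9, 0.62 to 0.74 for PSMB10 and 0.96 to 1.10 for PSME1 and PSME2, where p could not go below 0.057. Of the members called on the CPM or the TPM scale, these had opposite signs on CPM and on log2(TPM + 1) and log2(TPM + 0.1), where the median of all genes is lower: PSMC6 after PMA (-0.23 and -0.23), and PSMA3 (-0.30 and -0.30), PSMB7 (-0.026 and -0.026) and PSMD1 (-0.35 and -0.36) with Ceefourin 2 in both arms. A further 237 values, over all alternatives and comparisons, changed sign where neither was called. With 2 libraries per group, a member that was not called is not shown to be unchanged.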

Other observations

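Rows with the same symbol pattern that are not protein-coding numbered 36. Of 30 processed pseudogenes, 20 had 0 counts in all libraries, and PSMC1P1 and PSMA6P1 held 17.9% and 2.06% as many counts as PSMC1 and PSMA6, so reads of those pairs may be shared. The antisense RNA PSMB8-AS1, whose span on chromosome 6 (32844086 to 32846495) overlaps PSMB8 and PSMB9, had 159 and 185 expected counts in PMA plus Ceefourin 2 cells, 114 and 78.0 in PMA cells, 76.0 and 48.0 in Ceefourin 2 cells and 76.0 and 48.0 in untreated cells. It was called higher in PMA plus Ceefourin 2 against Ceefourin 2 (log2 fold change of CPM 1.47, SE 0.37, edgeR adjusted p = 0.0107), as was PSME2P2 (1.05, SE 0.25, adjusted p = 0.00859), and neither was called after PMA (adjusted p = 0.190 and 0.184).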
